A study of Mus musculus with 2 samples.

Results

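Some mouse melanoma cells recovered from lung and bone metastases carried a transcript signature of the kind that interferon-gamma induces. These cells were chosen by the counts of 12 genes in each cell barcode of a droplet library. A barcode was a member where it held at least 1000 genes and at most 15% mitochondrial unique molecular identifiers (UMIs), where a first sum of UMIs over 7 genes reached at least 4, and where a second sum over 5 genes stayed below 5. The first sum was taken over Psmb8, Psmb9, Iigp1, Gbp2, Gbp4, Cd74 and H2-Aa, and the second over the type I interferon-induced genes Ifit1, Ifit2, Ifit3, Isg15 and Rsad2. Of 9644 barcodes that passed the filter, 427 (4.43%) were members and 7042 (73.0%) held none of the 7 genes. A further 2027 barcodes had a first sum of 1 to 3, and 148 met the first threshold but also had a high second sum.

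The cells were B16F10 melanoma cells, a pigmented mouse line that seeds lung and other organs, tagged with GFP and sorted as GFP+CD45-DAPI-. They came from the lungs of wild-type mice (WT lung), the lungs of Prf1-/- mice (Prf1-/- lung) and the knees of Prf1-/- mice (Prf1-/- bone). Prf1-/- hosts lack perforin, with which killer T and NK cells open their targets' membranes, and the labels name no treatment. Digestion lasted 20 min for lung tumours and 30 min for the crushed knees, so digestion and site cannot be told apart. The 3 sources carried different hashtag antibodies and were pooled for a single run of 1 RNA library and 1 hashtag library. Age and number of mice are not given in the sources used here, so each hashtag group is 1 sample, no test was made, and the 95% intervals describe counting error alone, without the spread from mouse to mouse.

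The RNA matrix held 15961 barcodes and 35150895 UMIs, of which 4204 barcodes were also in the hashtag matrix. A barcode was placed in a hashtag group where its largest hashtag count was at least 2 times the second. The hashtag matrix lacked 6270 of the filtered barcodes and 242 had no clear hashtag, so they have no source. The members had a median of 2973 UMIs and the barcodes with a first sum of 0 a median of 2506.

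Interferon-gamma is a cytokine of T and NK cells. It acts through the receptor chains Ifngr1 and Ifngr2 and the kinases Jak1 and Jak2, and its signal reaches gamma-activated sites (GAS) in target promoters and induces Irf1. The targets swap catalytic subunits of the proteasome for those of the immunoproteasome (Psmb8, Psmb9, Psmb10), raise peptide loading on MHC class I, and can turn on MHC class II in cells that do not normally present antigen, through an X and Y box module in class II promoters. Interferon-inducible GTPases act against intracellular pathogens. Type I interferons signal mainly through interferon-stimulated response elements (ISRE), and many genes answer both kinds of interferon, so a signature in RNA does not name the cytokine.

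Promoter sequences are shown because the signature's genes are known as targets of these elements. For each gene the 120 bases just before its start are given 5′ to 3′ on the gene's strand, from RefSeq on GRCm38.p6, the build also called mm10. Capitals mark GAS letters (TTCNNNGAA), ISRE letters (TTTCNNTTTC or, on the other strand, GAAANNGAAA) or Y box letters (CTGATTGG or CCAATCAG). Psmb8 at chr17:34198075-34198194 holds a GAS match, Gbp2 at chr3:142620543-142620662 an ISRE match, and Igtp at chr11:58199436-58199555 holds both. Irf1 at chr11:53769894-53770013, the first of its listed starts, holds a GAS match. H2-Aa at chr17:34287824-34287943, on the minus strand, and H2-Eb1 at chr17:34305747-34305866 hold a Y box. Psmb8, Gbp2 and H2-Aa belong to the rule, and Igtp, Irf1 and H2-Eb1 do not.
Psmb8: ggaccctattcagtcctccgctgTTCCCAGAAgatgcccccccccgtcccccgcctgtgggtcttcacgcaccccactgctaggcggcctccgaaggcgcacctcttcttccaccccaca
Gbp2: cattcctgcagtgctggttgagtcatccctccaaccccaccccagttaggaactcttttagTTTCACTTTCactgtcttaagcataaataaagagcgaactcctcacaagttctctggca
Igtp: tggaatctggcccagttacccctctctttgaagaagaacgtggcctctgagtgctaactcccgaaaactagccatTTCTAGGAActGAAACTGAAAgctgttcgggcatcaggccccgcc
Irf1: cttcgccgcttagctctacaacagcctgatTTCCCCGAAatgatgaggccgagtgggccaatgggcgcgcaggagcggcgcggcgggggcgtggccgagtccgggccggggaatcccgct
H2-Aa: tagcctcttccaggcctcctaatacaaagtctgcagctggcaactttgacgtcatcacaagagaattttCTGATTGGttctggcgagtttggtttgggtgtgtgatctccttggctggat
H2-Eb1: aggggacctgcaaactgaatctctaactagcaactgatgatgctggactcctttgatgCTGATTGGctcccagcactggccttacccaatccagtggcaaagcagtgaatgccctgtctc
In this window the GAS match of Psmb8 began 97 bases before the start and that of Irf1 90 bases before it. The Y box lay 51 bases before the start of H2-Aa and 62 before that of H2-Eb1. Igtp carried its GAS match 45 bases and its ISRE match 34 bases before the start, without overlap. Among all 32851 promoter windows of 250 bases, 7.02% held the GAS letters, 2.98% the ISRE letters on either strand and 3.83% the Y box on either strand. These matches describe letters only. Psmb10, Psme1, Psme2 and Ifi47 held none of the 3 in the windows searched. Psmb9 and Tap1, which lie head to head on opposite strands with starts 226 bases apart, share a Y box. Genes not in the promoter table, and so not searched, included Iigp1, Cd74 and Gbp4 of the rule and Gbp6, Gbp9, Tap2, H2-Ab1, Nlrc5 and Ciita.

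The signature was most frequent in bone. In Prf1-/- bone 74 of 385 barcodes were members, a share of 19.2% (15.4 to 23.5). In WT lung 116 of 1227 barcodes were members, a share of 9.45% (7.88 to 11.2). In Prf1-/- lung 58 of 1520 barcodes were members, a share of 3.82% (2.91 to 4.91). The 3 intervals did not overlap. Shares of barcodes with none of the 7 genes ran the other way, at 32.7% (bone), 58.0% (WT lung) and 73.4% (Prf1-/- lung). The order bone, WT lung, Prf1-/- lung also held at a first sum of at least 8, with 7.01% (4.67 to 10.04), 2.77% (1.93 to 3.85) and 0.987% (0.553 to 1.62). Over all filtered barcodes of a group, members or not, the 7 genes together stood at 731 UMIs per 1000000 (CPM) for bone, 441 for WT lung and 224 for Prf1-/- lung.

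Depth moved the size of these shares but not their order. Median UMIs were 3107 for bone, 2909 for WT lung and 2826 for Prf1-/- lung. With every barcode thinned to 2500 UMIs, which left out 87, 403 and 540 shallower barcodes, the shares were 18.1% (13.9 to 22.97), 8.50% (6.68 to 10.6) and 3.67% (2.59 to 5.05). With 1500 UMIs they were 7.27% (4.89 to 10.3), 4.97% (3.82 to 6.34) and 1.78% (1.18 to 2.58), and there the intervals of bone and WT lung overlapped. At 1500 UMIs and a first sum of at least 2 they were 22.9%, 13.5% and 6.65%, without overlap. Barcodes not listed in the hashtag matrix had 167 members of 6270, or 2.66% (2.28 to 3.09), at a median of 2418 UMIs, and barcodes with no clear hashtag 12 of 242, or 4.96% (2.59 to 8.50).

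Free RNA from broken cells can give UMIs in any droplet. Small droplets with under 500 genes, which failed the filter, held the 7 genes at 383 CPM (1150 droplets with a median of 601 UMIs), above the 256 CPM of filtered barcodes. Only 23 of these 1150 reached a first sum of 4. The part of free RNA in the members' shares was not tested. Hashtag depth moved with membership: members had a median largest hashtag count of 1002 (WT lung), 1960 (Prf1-/- lung) and 705 (bone), against 506, 833 and 481 at a first sum of 0, and its part in the shares was not tested.

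**Figure D1:**
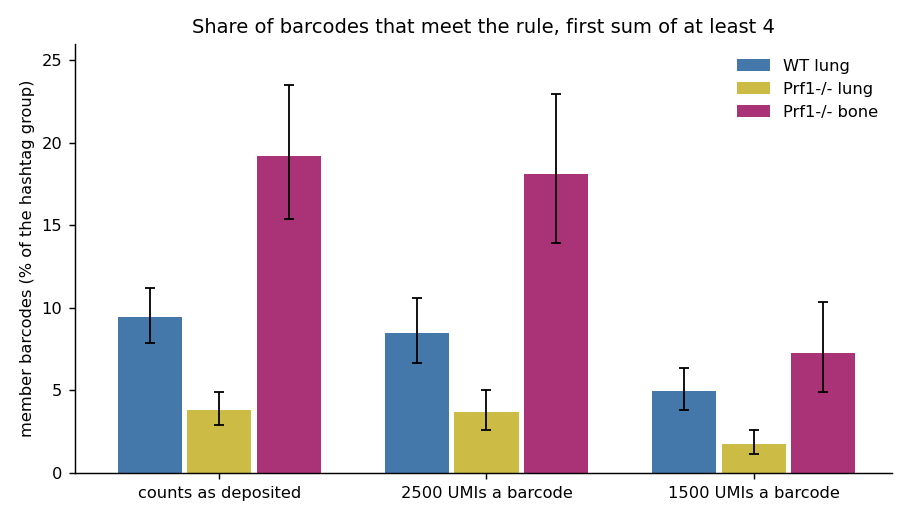
Share of member barcodes in each hashtag group, as a percent of the group's filtered barcodes, for the counts as deposited and after thinning to 2500 or 1500 UMIs a barcode; bars are the shares and whiskers exact Clopper-Pearson 95% intervals for counting error. Bone stood at 19.2%, 18.1% and 7.27%, above WT lung at 9.45%, 8.50% and 4.97% and Prf1-/- lung at 3.82%, 3.67% and 1.78%.

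The members kept the identity of melanoma cells. All 427 held UMIs of the 7 melanoma markers Pmel, Dct, Mlana, Tyr, Tyrp1, Mitf and Sox10, with a median of 29 and a minimum of 2 per member, against a median of 30 at a first sum of 0. Summed, these markers stood at 10311 CPM in members and 11988 CPM at a first sum of 0. The 4 genes given as markers of the signature, Psmb8, Psmb9, Iigp1 and Gbp2, are part of the rule, so their presence checks nothing.

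Markers of immune cells, which include the usual bearers of MHC class II, were close to absent. The 10 T and NK cell markers, such as Cd3e and Nkg7, and the 6 neutrophil markers, such as S100a8 and Ly6g, had 0 UMIs in members, where a floor of 3 UMIs equals 2.15 CPM. The 5 pan-immune markers had 1 UMI, with Cd52, Coro1a, Laptm5 and Cd53 at 0. Of 14 markers of monocytes, macrophages and dendritic cells 10 were at 0, among them Adgre1, Csf1r and Itgax, and the summed level was 32.2 CPM in members and 11.4 CPM at a first sum of 0. Of these 45 UMIs 51.1% came from 1 member. B and plasma cell markers had 4 UMIs and erythroid markers 2.

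A few barcodes held other cells' transcripts. Alveolar and airway epithelial markers had 257 UMIs in 21 members, of which 90.7% came from 1 member not listed in the hashtag matrix, and stood at 184 CPM against 14.8 at a first sum of 0. Endothelial markers, such as Pecam1 at 0, stood at 12.2 CPM in members and 21.6 at a first sum of 0, and fibroblast markers at 23.6 and 32.9 CPM. Of the fibroblast UMIs 63.6% lay in 1 member. The 4 mesothelial markers had 14 UMIs, all in 1 member, and the 4 chondrocyte markers 5 UMIs in 1 member. Only 5 members held 2 or more UMIs over the epithelial, myeloid, lymphoid and neutrophil markers, and 19 members (4.45%) held over 6000 UMIs, against 0.866% of barcodes with a first sum of 0. No doublet caller was run, so how many members were 2 cells is not known.

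The 7 genes of the rule did not contribute evenly. The description that follows shows the selection and supports nothing. Psmb8, a catalytic subunit of the immunoproteasome, gave 33.6% of the first sum in members and was seen in 86.4% of them at 684 CPM (641 to 728). Iigp1, an immunity-related GTPase, gave 26.01% and was seen in 65.1%. Psmb9, the subunit encoded beside Tap1, gave 11.7%, Gbp2, a guanylate-binding protein, 11.7%, Cd74, the class II invariant chain, 9.17%, and Gbp4 and the class II alpha chain H2-Aa 3.90% each. The median member had 3 of the 7 genes, 312 of 427 had at least 3, and 14 rested on a single gene. No member rested on class II alone.

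At the threshold, 121 members had a first sum of exactly 4, and 195 barcodes with a second sum under 5 had a first sum of 3. Psmb8 stood at 502 CPM in the former and, over all barcodes with a first sum of 3, at 395 CPM. Iigp1 stood at 277 and 174 CPM, and Cd74 at 69.8 and 70.3 CPM. These genes made the first sum, so the selection sets their step and they cannot show whether the class has a gap at its edge.

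The part of the signature that members carried differed between the hashtag groups. UMIs of Cd74 or H2-Aa were present in 33 of 116 WT lung members, or 28.4% (20.5 to 37.6). They were present in 31 of 58 Prf1-/- lung members, or 53.4% (39.9 to 66.7), and in 44 of 74 bone members, or 59.5% (47.4 to 70.7). The WT lung interval lay below both others, at median depths of 3263, 3108 and 3212 UMIs per member. The GTPases Iigp1, Gbp2 and Gbp4 ran the other way, with UMIs in 86.2% (78.6 to 91.9) of WT lung, 81.0% (68.6 to 90.1) of Prf1-/- lung and 70.3% (58.5 to 80.3) of bone members. Psmb8 or Psmb9 was present in 96.6%, 94.8% and 97.3%. Since these genes made the selection, a member without class II needed more of the other 5 genes, and the shares are a description.

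Levels of these genes are also a description, because the same genes made the selection, and they add no support to the shares. Cd74 stood at 138 CPM (104 to 180) in WT lung members, 252 (189 to 331) in Prf1-/- lung members and 235 (181 to 301) in bone members. H2-Aa stood at 42.7 (24.9 to 68.3), 107 (66.9 to 162) and 121 (83.5 to 170) CPM. Gbp2 was highest in WT lung members at 261 (213 to 316), with 228 (168 to 303) in Prf1-/- lung and 158 (114 to 213) in bone. In the order WT lung, Prf1-/- lung and bone, Iigp1 stood at 547, 451 and 434 CPM. Gbp4 was highest in bone, at 75.3, 43.7 and 103 CPM in that order. Psmb8, at 713, 621 and 768 CPM, differed by no more than its counting intervals.

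**Figure D2:**
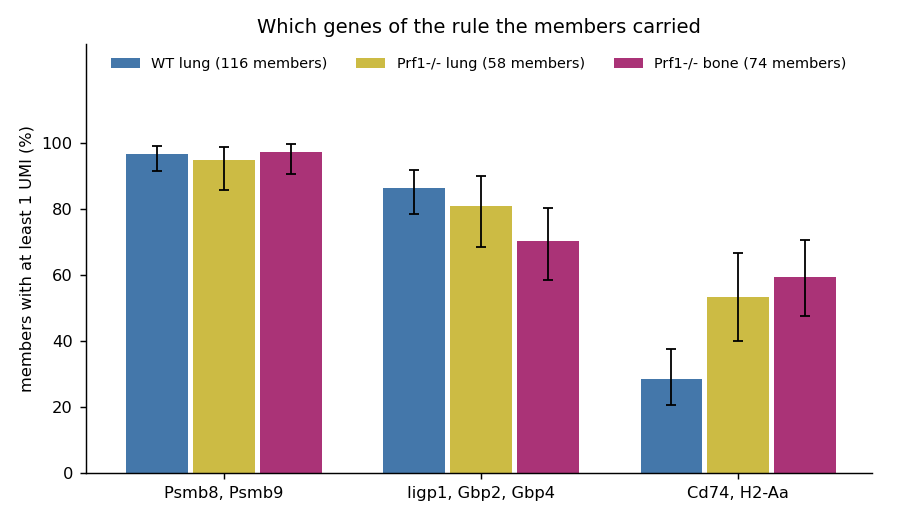
Percent of members with at least 1 UMI of each part of the rule, by hashtag group; bars are shares and whiskers exact Clopper-Pearson 95% intervals for counting error. The immunoproteasome pair is near its ceiling in all 3 groups, the GTPases run from 86.2% in WT lung to 70.3% in bone, and the class II pair from 28.4% in WT lung to 59.5% in bone.

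Class II genes outside the rule can be read beside this. H2-Ab1, H2-Eb1, H2-DMa and H2-DMb1 together had UMIs in 33 of 116 WT lung members (28.4%, 20.5 to 37.6), 21 of 58 Prf1-/- lung members (36.2%, 23.99 to 49.9) and 34 of 74 bone members (45.9%, 34.3 to 57.9). These intervals overlapped. Their summed level was 138 CPM (104 to 180), 170 (118 to 236) and 224 (172 to 288) in that order, also with overlapping intervals. H2-Ab1 (40.2, 58.2 and 80.9 CPM) and H2-DMb1 (15.1, 14.6 and 51.5) were highest in bone. H2-Eb1 (47.7, 34.0 and 44.1) was highest in WT lung and H2-DMa (35.1, 63.1 and 47.8) in Prf1-/- lung. At a first sum of 0 the summed level was 10.1, 9.16 and 19.2 CPM, also highest in bone. Among barcodes with a first sum of 1 to 3 the same 4 genes stood at 64.0 CPM (45.1 to 88.3) in bone, 33.4 (23.6 to 45.8) in WT lung and 26.04 (17.2 to 37.9) in Prf1-/- lung.

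Members were next compared with the 7042 barcodes whose first sum was 0, over genes that the rule did not use. The second sum was not limited in the latter class. A gene is called higher or lower here where its CPM differed by at least 1.5-fold and the counting interval of the ratio left out 1. Both classes come from 1 library, so these calls are sizes and not tests. Of 5720 genes with a mean of at least 20 CPM, 114 (1.99%) were higher and 105 (1.84%) lower in members. Of the 114 higher genes 88 lay above 1 in WT lung, Prf1-/- lung, bone and unlisted barcodes alike, and 47 passed 1.5-fold in all 4. Of the 105 lower genes 59 lay below 1 in all 4, and 8 passed 1.5-fold in all 4. The calls were made on the pooled barcodes, which hold these 4 sets, so such agreement is partly built in. The same share over all 5720 genes is not given here, and the counts describe the called genes only. For gene lists the minimum was a mean of 10 CPM, at which 2.5% of 7709 genes were higher and 2.49% lower, with a median log2 difference of -0.03.

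Outside the rule, every measured member of the MHC class II and GTPase lists was higher, and so were most of the MHC class I, immunoproteasome and type I effector lists. MHC class II had 4 of 4 higher, the GTPases 9 of 9, MHC class I and peptide loading 11 of 14, the immunoproteasome and its activator 3 of 4, the chemokines 3 of 3 and type I interferon effectors 28 of 35. Their median log2 differences were 4.76, 3.36, 1.76, 1.59, 1.74 and 1.22. The 14 constitutive proteasome subunits had none higher and a median of 0.25, and 88 ribosomal protein genes none higher and a median of 0.01. The minimum was a mean over both classes, so genes near 0 at a first sum of 0 were measured only where members were high. H2-Ab1, H2-Eb1, H2-DMa, Cxcl9, Gbp9, Nlrc5 and H2-T23 are examples, and the minimum largely set their call. Among others, Gbp6, Tap2, Zbp1, H2-DMb1, Isg20, Ifi44 and Gsdmd also stood below 10 CPM at a first sum of 0. They too were measured only through the members. The class II list had 10 entries, of which 2 belong to the rule and 4 were measured. These counts are a description.

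**Figure D3:**
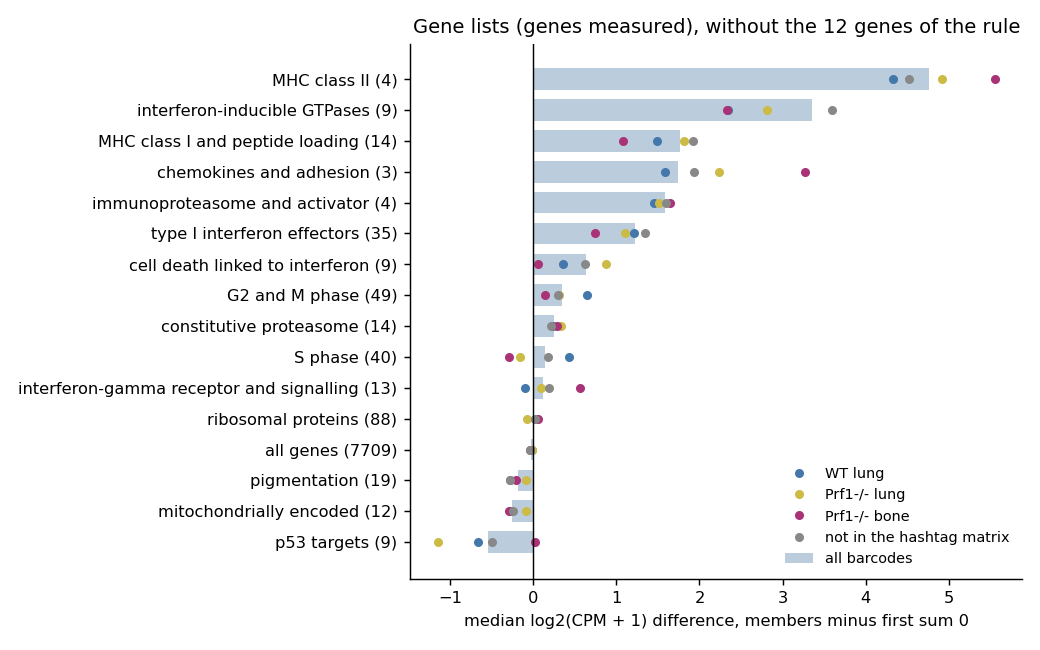
Median log2(CPM + 1) difference, members minus barcodes with a first sum of 0, for gene lists without the 12 genes of the rule, with the number of genes measured in brackets; bars are all barcodes and points the same median within each set of barcodes. MHC class II (4.76) and the GTPases (3.36) lie furthest right, and all genes lie at -0.03.

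Psmb10 and both activator genes were higher in members, and Pomp did not pass. Psmb10, the only inducible catalytic subunit outside the rule, stood at 462, 447 and 489 CPM in members of WT lung, Prf1-/- lung and bone, against 83.7, 74.8 and 81.8 at a first sum of 0. Every hashtag group was high in members and low at 0, with ratios of 5.52, 5.97 and 5.98, and the pooled ratio was 5.91 (5.38 to 6.48). Psme1 and Psme2, the subunits of the activator ring that interferon-gamma induces, had ratios of 2.82 (2.52 to 3.14) and 3.27 (2.92 to 3.65), with no group below 2.58. Pomp, the chaperone that assembles new proteasomes, had a ratio of 1.14 (1.05 to 1.23), and the constitutive subunits Psma7 and Psmb1 had ratios of 1.18 and 1.07.

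Genes of peptide transport and loading were higher, and none of 3 general folding chaperones passed 1.5-fold. Tap1, a subunit of the peptide transporter, stood at 138, 112 and 140 CPM in members of WT lung, Prf1-/- lung and bone, against 22.1, 18.9 and 40.9 at a first sum of 0. Its pooled ratio was 7.48 (6.24 to 8.94), and that of its partner Tap2 7.19 (5.04 to 10.2). Tapbp, which bridges the transporter to class I, had a ratio of 3.51 (2.85 to 4.28). Calr and Pdia3, which serve class I loading and protein folding at large, had ratios of 1.02 (0.970 to 1.08) and 1.08 (0.997 to 1.16), and Canx was below 1 at 0.840 (0.764 to 0.922).

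Class I molecules were higher too, by factors that differed between them. B2m, the light chain, stood at 1463, 1616 and 1191 CPM in members of WT lung, Prf1-/- lung and bone, against 910, 869 and 885 at a first sum of 0. Its ratio was 1.61, 1.86 and 1.35 in the 3 groups and 1.85 (1.76 to 1.94) in all. The heavy chains H2-K1 and H2-D1 had ratios of 4.58 (4.27 to 4.89) and 2.45 (2.31 to 2.60), and both were smallest in bone, at 2.35 and 1.91. H2-T23, the gene of Qa-1, which inhibits NK and T cells through CD94 and NKG2A, had a ratio of 9.44 (6.19 to 14.3). Nlrc5, the transactivator of class I genes, had 7.93 (4.93 to 12.6) from 31 UMIs. Its ratios were 9.09 in WT lung, 8.76 in Prf1-/- lung and 0.510 (0.0097 to 6.35) in bone. Class I heavy chain genes are alike in sequence, so reads may be split between them.

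MHC class II genes had the largest ratios, from few UMIs. H2-Ab1, a class II beta chain, stood at 40.2, 58.2 and 80.9 CPM in members of WT lung, Prf1-/- lung and bone. At a first sum of 0 it stood at 0.920 and 0.591 CPM in the lungs, and it had 0 UMIs in the 126 bone barcodes, where a floor of 3 counts allows a share of barcodes with a UMI of up to 2.38%. H2-Ab1 had a UMI in 62 of 427 members (14.5%) and in 0.156% of barcodes with a first sum of 0, at median depths of 2973 and 2506 UMIs. Its pooled ratio was 99.3 (52.6 to 207), that of H2-Eb1 136 (58.9 to 385) and that of H2-DMa, a chain of the peptide-exchange factor, 49.8 (27.7 to 94.9). H2-DMb1 had a smaller ratio of 3.35 (2.28 to 4.79). The promoter of H2-Eb1 printed above carries the same Y box letters as that of H2-Aa.

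All measured interferon-inducible GTPases outside the rule were higher. Igtp, an immunity-related GTPase whose promoter is printed above, stood at 133, 131 and 114 CPM in members of WT lung, Prf1-/- lung and bone, against 18.4, 12.1 and 21.6 at a first sum of 0, and its pooled ratio was 11.6 (9.58 to 14.1). Ifi47 had a ratio of 13.9 (11.7 to 16.5), with 12.8, 7.50 and 4.97 in the 3 groups. Irgm1, a regulator of the family, had 4.82 (3.94 to 5.86). Among the guanylate-binding proteins Gbp6 had 16.9 (12.1 to 23.7), Gbp9 31.9 (16.1 to 66.6) from 30 UMIs, and Gbp7 4.44 (3.81 to 5.15). Gbp genes lie in clusters of near copies, and Tgtp2 has a near-identical copy, so their reads may be split.

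Of the receptor and signalling genes described here the transcription factors Irf1 and Irf2 were higher, and the receptors and kinases did not pass over all barcodes. Irf1, a GAS-driven transcription factor, stood at 92.8, 58.2 and 47.8 CPM in members of WT lung, Prf1-/- lung and bone, against 18.9, 18.9 and 14.4 at a first sum of 0, with a pooled ratio of 5.08 (4.06 to 6.32). Irf2, an antagonist of Irf1, had a ratio of 1.57 (1.15 to 2.10), with 1.04 and 1.03 in the lungs and 1.87 in bone. Ifngr1 had 1.11 (0.677 to 1.74), Ifngr2 0.856 (0.651 to 1.11), Jak1 1.06 (0.881 to 1.27) and Jak2 0.982 (0.527 to 1.69). In bone alone Jak1 was lower, at 0.606 (0.357 to 0.998). These intervals leave changes of up to 1.74-fold in Ifngr1, which had 21 UMIs in members, undetectable at this depth. Of other genes of the list, Stat2 (1.13), Stat3 (1.09), Irf9 (1.20), Ptpn2 (0.971), Ptpn11 (0.960) and Socs3 (0.740) did not pass. Among receptors for type I interferon, Ifnar1 had 0.662 (0.381 to 1.08) and Ifnar2 1.06 (0.850 to 1.32).

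**Figure D4:**
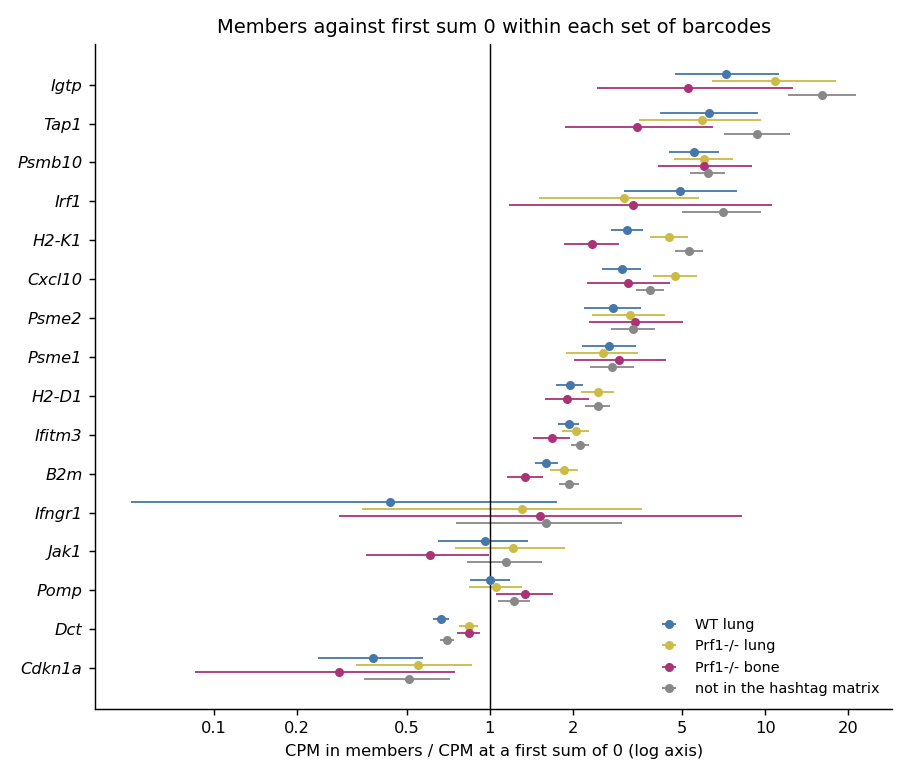
Ratio of CPM in members to CPM at a first sum of 0, on a log axis, for genes outside the rule in 4 sets of barcodes; points are ratios and whiskers exact 95% intervals for counting error. Igtp, Tap1 and Psmb10 lie to the right of 1 in each set, Ifngr1 intervals include 1 in each set, Jak1 intervals include 1 except in bone (0.606, 0.357 to 0.998), and Cdkn1a lies to the left of 1.

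The CXCR3 ligands Cxcl9 and Cxcl10 were higher in members, and Ccl5 went different ways in different barcodes. Cxcl9, a ligand of CXCR3 that is known as a target of interferon-gamma, had 58 UMIs in 42 members (9.84%) and in 0.213% of barcodes at 0, with a ratio of 47.2 (27.1 to 86.4). Cxcl10, a second CXCR3 ligand, stood at 580, 762 and 390 CPM in members of WT lung, Prf1-/- lung and bone, against 192, 161 and 123 at a first sum of 0. Its ratios were 3.02, 4.72 and 3.18 in the groups and 3.35 (3.11 to 3.61) in all. Ccl5, which also draws T cells, had a ratio of 1.70 (1.46 to 1.98), of which 35.8% of the members' UMIs came from 1 member, and its log2 difference turned to -0.02 at a first sum of at least 6. In the unlisted barcodes Ccl5 was lower in members, at 39.1 against 68.3 CPM and 0.573-fold (0.338 to 0.911). In WT lung, Prf1-/- lung and bone its ratios were 1.53 (1.14 to 2.02), 4.34 (3.42 to 5.45) and 16.8 (2.44 to 724). In each of these groups 1 member held most of the members' UMIs, at 58.5%, 71.6% and 81.8%. A Ccl5 UMI was seen in 4.31% of WT lung members and in 7.88% of WT lung barcodes at 0. Bone members held 11 UMIs and bone barcodes at 0 held 1. Cd274, which encodes PD-L1, was under the level measured.

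Genes that answer type I interferon were also higher in members, although the rule capped 5 of them. Zbp1, a sensor of nucleic acids in necroptosis, stood at 148, 189 and 154 CPM in members of WT lung, Prf1-/- lung and bone, against 12.9, 9.16 and 14.4 at a first sum of 0, with a ratio of 19.4 (15.8 to 23.8). The abundant membrane proteins Ifitm3 and Bst2 had ratios of 2.01 (1.93 to 2.10) and 1.99 (1.88 to 2.12), while Ifi27 and Ifitm2 had 1.13 and 1.04. Isg20, an exonuclease, had 6.38 (4.32 to 9.29), and Ifi44 5.81 (4.01 to 8.31). Of the 20 higher genes with an ISRE match among 89 in the promoter table (22.5%), Gbp7, Igtp, Irgm1 and B2m are examples, and 147 of 4614 measured genes (3.19%) had one. The GAS letters were in 10 of the 89 (11.2%) and in 304 of the 4614 (6.59%). Of the lower genes 89 were also in the promoter table, with ISRE letters in 4 (4.49%) and GAS letters in 8 (8.99%). For GAS letters the higher and lower genes thus differed little.

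The 148 barcodes in which both sums were high give a scale for this. Cxcl10 stood at 616 CPM in members and 2998 in those barcodes, a ratio of 0.206 (0.189 to 0.224), and Ccl5 at 136 and 911 CPM. Cxcl9 was also lower in members, at 41.5 and 144.9 CPM, a ratio of 0.286 (0.1985 to 0.4112). Zbp1 stood at 165 and 292 CPM, Irf1 at 81.5 and 174, and Igtp at 141 and 319, each with an interval below 1. Psmb10 was closer, at 464 and 600 CPM with a ratio of 0.773 (0.672 to 0.891), and Psme1 had a ratio of 0.932 (0.769 to 1.14). For H2-Ab1 and H2-Eb1 the members were the higher class, at 56.5 against 33.1 and 42.2 against 29.0 CPM, with intervals of the ratio from 0.988 to 3.13 and from 0.803 to 2.82 that include 1. Barcodes with both sums high made up 26.6% of all WT lung barcodes with a first sum of at least 4, 31.0% in Prf1-/- lung and 12.9% in bone.

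Several genes outside the rule climbed with the first sum, and others did not. Over first sums of 0, 1, 2, 3, 4, 5 to 7, and 8 or more, all with a second sum under 5, Psmb10 stood at 77.5, 135, 208, 260, 334, 411 and 688 CPM. H2-Ab1 went from 0.587 over 4.64, 8.45, 16.2, 23.3 and 50.4 to 101 CPM. B2m went from 711 to 1613 CPM. Irf1 lay between 15.4 and 50.4 CPM up to a first sum of 7 and at 183 CPM in the 115 barcodes with 8 or more. Jak1 stayed between 80.3 and 103 CPM, and Ifngr1 between 8.12 and 18.1 CPM. Median depth over the same steps went from 2500 to 3164 UMIs, and its part in the slopes was not tested.

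**Figure D5:**
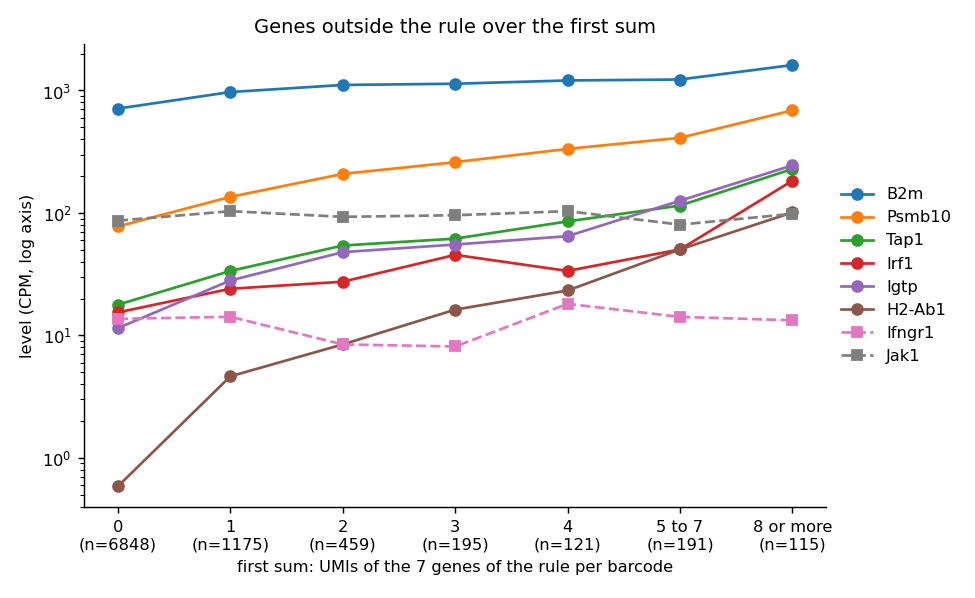
Level of genes outside the rule, in CPM on a log axis, over classes of the first sum in barcodes with a second sum under 5; points are summed levels and n the number of barcodes. Psmb10, Tap1, Igtp and H2-Ab1 climb to the class of 8 or more, while Jak1 (80.3 to 103 CPM) and Ifngr1 (8.12 to 18.1 CPM), drawn dashed with squares, do not.

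Among genes with a mean of at least 20 CPM and an interval wholly beyond 1.5-fold, the naming rule, the 12 with the highest log2 differences were H2-Ab1, H2-Eb1, Cxcl9, Zbp1, Sftpc, Gbp6, Ifi47, Igtp, Tap1, Prph, Mndal and Tap2. All 12 stood below 20 CPM at a first sum of 0, so each met that mean only through the members. Sftpc, the surfactant gene of alveolar cells, is there through 1 unlisted barcode with 94.3% of its UMIs, and its ratios in WT lung, Prf1-/- lung and bone were 0.682, 0.996 and 0.764. Prph, which encodes the neuronal intermediate filament peripherin, stood at 75.1 CPM in 72 members (16.9%) and 10.9 CPM at a first sum of 0. Its ratio was 6.91 (5.41 to 8.78), with 8.09 in WT lung, 5.19 in Prf1-/- lung, 29.05 (4.62 to 1207) in bone, where the zero class stood at 2.41 CPM, and 5.56 in unlisted barcodes. Mndal, an interferon-inducible nuclear protein, had a ratio of 6.61 (5.38 to 8.09).

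Genes of cell death that interferons can induce were higher in part. Of 9 measured, 5 were higher: Mlkl, the effector of necroptosis, at 2.03 (1.64 to 2.49), Gsdmd, the pore-forming effector of pyroptosis, at 2.74 (1.65 to 4.36), Casp4 at 1.79 (1.24 to 2.51), Bak1 at 1.69 (1.42 to 2.01) and Bid at 1.58 (1.14 to 2.15). In bone, Mlkl and Casp4 stood at 0.874 and 0.764. Bax had a ratio of 0.902 (0.828 to 0.982). Of 6 genes for checkpoints and resistance to killing, H2-T23 and the ligand gene Nectin2 (1.80, 1.30 to 2.44) were higher. Nectin2 had ratios of 2.25 in WT lung, 0.463 (0.055 to 1.73) in Prf1-/- lung and 1.36 in bone. Cd47, the signal against phagocytosis, had 1.12 (0.903 to 1.36).

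Only 4 genes met the naming rule on the lower side. Cdkn1a, the p53-induced inhibitor of cyclin-dependent kinases, stood at 60.1 CPM in members and 146 at a first sum of 0, a ratio of 0.412 (0.327 to 0.511), with 0.377, 0.549 and 0.283 in WT lung, Prf1-/- lung and bone. It stood at 182 CPM in barcodes with both sums high. The others were App, the amyloid precursor protein gene, at 0.379 (0.215 to 0.620), Nfatc2, a calcium-regulated transcription factor gene, at 0.385 (0.223 to 0.621) and Cd109 at 0.396 (0.225 to 0.648). Of 9 p53 targets 4 were lower, Cdkn1a, Btg2, Zmat3 and Aen, and the median log2 difference was -0.55, with -0.67, -1.15 and 0.03 for WT lung, Prf1-/- lung and bone.

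Over all barcodes most pigment cell genes lay slightly below 1 without passing 1.5-fold. Of 19 measured none passed, 17 lay below 1, and the median log2 difference was -0.18. For Dct, which acts in melanin production, the ratio came to 0.728 (0.704 to 0.753), with 0.666, 0.839 and 0.839 in the 3 groups, while Pmel and Mlana had 0.911 and 1.01. In Prf1-/- lung these lay above 1, Pmel at 1.09 (1.02 to 1.17) and Mlana at 1.45 (1.33 to 1.57), and in WT lung below 1, at 0.867 and 0.819. The 12 mitochondrially encoded genes all lay below 1, with none called and a median of -0.26, and 15 glycolysis genes had none called and a median of -0.12.

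Medians of cell cycle genes changed with the weighting of the zero barcodes. Of 49 genes of G2 and M phase 8 were higher, among them Dlgap5 at 1.81 (1.34 to 2.39) and Cenpf at 1.64 (1.44 to 1.86). The list's median was 0.35. It was 0.16 with the zero barcodes weighted to the members' depth, 0.41 weighted to their hashtag mix and 0.25 weighted to both. With depth weighting, and with weighting to both, Dlgap5 had ratios of 1.63 and 1.67 and Cenpf 1.36 and 1.43. In WT lung the unweighted median was 0.65, in Prf1-/- lung 0.31 and in bone 0.14. Of 40 S phase genes none passed, and the median of 0.14 was -0.03 after weighting to depth, 0.13 to the hashtag mix and 0.01 to both. The immediate-early and dissociation stress list had none of 21 higher and Egr1 and Btg2 lower, with a median of -0.10, and the NF-kB list had none of 6 in either direction.

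Members of one hashtag group were also set against those of another, with the same contrast at a first sum of 0 beside it. Between bone and Prf1-/- lung members the ratios of Psmb10 and Igtp had intervals that include 1, and those of B2m and Cxcl10 did not. Psmb10 had a ratio of 1.10 (0.833 to 1.44) and Igtp 0.870 (0.502 to 1.51). B2m was lower in bone members, at 0.737 (0.631 to 0.861), with 1.02 (0.912 to 1.14) at a first sum of 0, and Cxcl10 was lower at 0.511 (0.396 to 0.659), with 0.760 (0.559 to 1.01) at 0. Differences of up to 1.44-fold in Psmb10 were not detectable at this depth.

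Of 2915 genes measured for this contrast, 6 were higher and 25 lower in bone members with an interval wholly beyond 1.5-fold. Genes with larger differences between these members included several with the same direction at a first sum of 0. Cck, the peptide hormone cholecystokinin, stood at 2364 CPM in bone and 510 in Prf1-/- lung members, a ratio of 4.64 (3.77 to 5.76), beside 13.1 (12.2 to 14.2) at a first sum of 0. Of the Prf1-/- lung UMIs 79.1% lay in 1 of 4 members with any. Fosb, a subunit of AP-1, had a ratio of 7.07 (3.05 to 20.1) beside 4.68 (3.43 to 6.35), Lmo1, a LIM domain transcription regulator, 2.37 beside 1.70 and the glutathione transferase gene Gsta4 2.02 beside 1.62. Fosb is an immediate-early gene, and the part of the longer digestion of bone in its level was not tested. Epb41l2 had 3.91 (1.61 to 11.5) beside 0.649 (0.400 to 1.00), and Ddx23 4.09 (1.55 to 13.6) beside 1.21. Prf1-/- lung members held only 6 UMIs each of Fosb and Epb41l2 and 5 of Ddx23. Lower in bone members were Lgals3, which encodes galectin-3, at 0.055 (0.011 to 0.174), S100a6 at 0.084 (0.022 to 0.235) and Ccl5 at 0.088 (0.042 to 0.164), with 0.168, 0.202 and 0.023 at a first sum of 0. Bone members held only 3 UMIs of Lgals3, 4 of S100a6 and 11 of Ccl5. Of the Ccl5 UMIs of Prf1-/- lung members 71.6% lay in 1 of 15.

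Between Prf1-/- lung and WT lung members the levels of Psmb10 (0.967, 0.745 to 1.25), B2m (1.11, 0.963 to 1.27) and Igtp (0.985, 0.596 to 1.59) lay within counting error. Of 2935 genes measured for this contrast, 7 were higher and 3 lower in Prf1-/- lung members with an interval wholly beyond 1.5-fold. Cxcl10 was higher in Prf1-/- lung members, at 1.31 (1.07 to 1.62), beside 0.839 (0.737 to 0.955) at a first sum of 0. Lgals3 was higher in Prf1-/- lung members, with 199 CPM, than in WT lung members, with 65.3, which is 3.05-fold (1.82 to 5.19), and lower at a first sum of 0, with 0.279 (0.218 to 0.356). The 41 UMIs lay in 8 of the 58 members, with 34.2% in 1. Apol9a, an apolipoprotein L gene that interferon induces, was lower at 0.265 (0.122 to 0.516), beside 0.634 (0.457 to 0.880) at 0. Mgarp had 0.387 (0.261 to 0.559) beside 0.811, and Nrp2, a semaphorin and VEGF co-receptor gene, 3.41 (1.82 to 6.60) beside 0.879. Mgp, at 0.129, rests on 1 WT lung member with 93.3% of that group's UMIs.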

How the data were processed

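Single-cell RNA and hashtag libraries came from 1 pooled run of sorted B16F10 cells with 10x 3′ chemistry. The authors deposited UMI counts per gene and per hashtag for each barcode, with no normalization. Per the submitters' processing notes, Cell Ranger 6.1.2, Seurat 4.3.0 and mm10 were used, and Cell Ranger 6.0.0 stands in the matrix header. The authors' own cell assignments were not used here.

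Barcodes were filtered and classed by the rule given in the report, and hashtag groups by the ratio of the largest to the second hashtag count. Counts were summed per class and scaled to CPM. Shares have exact Clopper-Pearson intervals, levels exact Poisson intervals and ratios exact conditional binomial intervals (scipy 1.17.1), all at 95%. They cover counting error only. Differences in log2 used 1 CPM added to each side. With 1 sample per group no test was made. The calling of genes as higher or lower was tested on simulated counts.

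The members and the gene lists were chosen with earlier results of these data known. Genes were named where the interval lay wholly beyond 1.5-fold (at most 12 a side, mean of at least 20 CPM), or as members of the lists, and between hashtag groups at a mean of at least 50 CPM. Bid, Canx, H2-K1, Tapbp and Tgtp2 fall outside this and were chosen after their values were seen. A measured gene of the signalling list is not reported here. No doublet caller was run, and a pair of cells with the same hashtag cannot be seen. Alternatives covered the thresholds of both sums, the filters, hashtag ratio, thinning, depth weighting, TMM scaling (edgeR 4.0.16) and the top barcode of each class.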

Additional observations from a re-analysis of the deposited data

Results flagged for a closer look

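Cck, the gene of the peptide hormone cholecystokinin, lay on opposite sides of 1 in the hosts' 2 sites when members were set against barcodes with a first sum of 0. In Prf1-/- lung the ratio was 1.58, at 510 against 322 CPM, and 79.1% of the members' UMIs came from 1 of only 4 members with any. In Prf1-/- bone the ratio was 0.560, at 2364 against 4225 CPM, with UMIs in 26 of 74 members and 52 of 126 barcodes at 0. In WT lung the ratio was 0.860. The difference between the groups was not tested.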

How the results depend on the processing

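The order bone, WT lung, Prf1-/- lung held in each alternative run for the shares, while their size moved. In the order WT lung, Prf1-/- lung and bone, the shares were 13.0%, 5.59% and 27.5% at a first sum of at least 3, 2.85%, 1.05% and 9.61% at a second sum of 0, and 4.97%, 1.78% and 7.27% after thinning to 1500 UMIs. At a first sum of at least 5 they were 6.76% in WT lung and 15.1% in bone. WT lung and Prf1-/- lung stood at 12.9% and 5.53% with no limit on the second sum, at 13.4% and 5.32% with at least 1500 genes, and at 13.5% and 6.65% after thinning to 1500 UMIs with a first sum of at least 2. Bone stood at 14.8% without Cd74 and H2-Aa, and WT lung at 11.98% with a hashtag ratio of at least 4. Of the gene counts (114 higher, 105 lower), 199 were higher at a first sum of at least 6, and 48 were lower at one of at least 3. They were 398 and 303 with no minimum beyond 1 UMI, 48 and 12 at a mean of at least 50 CPM, and 55 and 5 at 2-fold. Without the top barcode of each class 181 were lower, and the cause was not tested. The log2 difference of Ccl5 turned to -0.0203 at a first sum of at least 6. That of Sftpc turned to -0.4423 there, to -0.0815 with fewer than 2 other-type UMIs, to -0.0578 with called hashtags only and to -0.1278 without the top barcode, and the cause for Ccl5 was not tested. Of 2145 values of 165 named genes over 13 alternatives, 1973 stayed within their intervals, 167 moved and 5 changed direction. Weighting the zero barcodes to the members' hashtag mix gave 124 and 110 genes, and to mix and depth 120 and 101. These weightings and the thinning to 2500 UMIs were chosen after seeing the data. No paired analysis was possible because each group is 1 sample and no result comes from a test. Depth limits genes of few UMIs, such as Ifngr1 and Jak2.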
